A study of Mus musculus with 30 samples.

Results

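The difference between lard and linseed oil in the ventral prostate was compared between 2 lengths of feeding, in 20 of the 30 RNA-seq libraries of a mouse diet study. Male C57BL/6 mice received, after weaning, isocaloric normolipidic diets whose fat was linseed oil (LO, rich in omega-3 fatty acids) or lard (PF; the labels write "Por Fat"), for 12 or 32 weeks, with 5 mice in each of the 4 groups. The mice fed soybean oil, the third diet, did not enter this comparison. Each gene has a PF minus LO difference on the log2 scale at 12 weeks and another at 32 weeks, and the quantity described here, the interaction of diet and time, is the second minus the first. A positive interaction means that PF stood higher relative to LO at 32 weeks than at 12 weeks. Of 39179 gene identifiers in the files, 16427 had enough counts to be tested. Expression is given as CPM, the normalised read count relative to the TMM-scaled size of the library.

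The ventral prostate is a lobe of secretory glands. Luminal epithelial cells fold, glycosylate and export large amounts of protein through the endoplasmic reticulum (ER) and the Golgi apparatus, and when unfolded protein builds up in the ER the sensors IRE1, PERK and ATF6 raise the expression of chaperones, degradation enzymes and transport factors. Basal epithelial cells line the outside of the glands, carry keratin 5 and keratin 14, and are anchored to the basement membrane through laminin and type XVII collagen. The stroma between the glands holds fibroblasts, smooth muscle, vessels and immune cells, and immune infiltrates are a common feature of the ageing rodent prostate.

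Each library held between 27590631 and 41301707 counts on genes, and the 10 most abundant genes took 19.56% to 35.21% of them. In LO this share was 26.42% to 35.2% at 12 weeks and 19.56% to 27.15% at 32 weeks, with TMM factors of 0.8959 to 1.03 and 1.017 to 1.184. In PF the share was 24.75% to 35.21% at 12 weeks and 20.66% to 33.88% at 32 weeks. All 40 pairs of libraries within a group differed by more than sampling noise (chi-square at least 22.91 for each degree of freedom). The mice numbered 1 stood apart from their groups: their sample weights in limma ranged from 0.188 to 0.62, the lowest in each of the 4 groups, and each had the highest mean level of the luminal epithelial marker list in its group. Their shared deviation is given with the alternatives. Values without these 4 mice stand beside some of the results that move by over 1.5 times, and not beside all. Nothing in the labels says whether mice of a group shared a litter or cage, so the p-values measure the spread between these mice.

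No gene passed the threshold for the interaction in edgeR's quasi-likelihood test, in which the lowest adjusted p was 0.616 (background share of calls 0%). At an unadjusted p under 0.05 stood 1047 genes (6.37% of those tested), of which 450 had a positive interaction (2.74%) and 597 a negative one (3.63%). The median interaction over all genes tested was 0.0032, and the median standard error (SE) 0.22. DESeq2's Wald test, run as an alternative, called 4 genes (0.0154% of those it adjusted), of which Mgat2 and Dnajb9 were positive and Iglv3 and Serpina3f negative. All values below are therefore descriptions of size and spread. The adjusted p of every gene named below lay between 0.616 and 0.913 in edgeR's test, and is printed only for a few.

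The 1047 genes were sorted by the diet difference at each time. A difference was taken to appear where its unadjusted p was under 0.05 at 32 weeks and not at 12 weeks, to fade in the opposite case, and to reverse where both were under 0.05 with opposite signs. By this division 384 differences appeared, 354 faded and 32 reversed, while 276 crossed without reaching the threshold at either time, and 1 kept its sign. The 16 reversals with a positive interaction included Mgat2, Dnajb9, Hspa13, Herpud1 and Ero1l, and the 16 with a negative interaction included Serpina3f and several immunoglobulin variable segments. The counts moved with single mice. Without LO mouse 3 at 32 weeks, 221 differences appeared and 17 reversed. Without PF mouse 1 at 32 weeks, 588 faded and 90 reversed. Without all 4 mice numbered 1, 287 appeared, 652 faded and 50 reversed, so that the balance of appearing and fading turned.

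**Figure D1:**
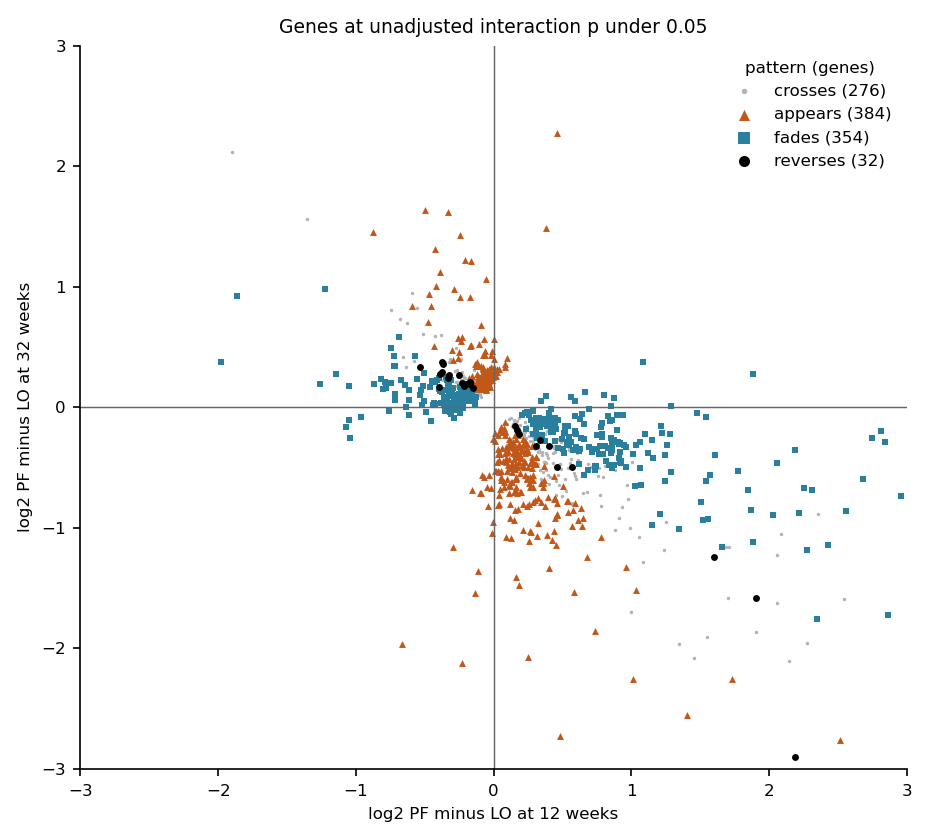
PF minus LO on the log2 scale at 12 weeks (horizontal axis) and at 32 weeks (vertical axis) for genes at an unadjusted interaction p under 0.05, 1 point per gene, coloured by whether the difference appears (384), fades (354), reverses (32) or crosses (276). The upper left holds genes lower in PF at 12 weeks and higher at 32 weeks, the lower right the opposite, the empty diagonal follows from the choice of genes, and 48 genes lie outside the axes, which end at 3.

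The 5 smallest p-values among the 15 positive genes named by rule belonged to Mgat2, Dnajb9, Hspa13, Herpud1 and Bet1, genes of protein folding, glycosylation and vesicle transport in the ER and Golgi. Of the other 10, Ero1lb and Slc33a1 also act in the ER. In these 7 genes the level in LO mice was lower at 32 weeks than at 12 weeks, while PF mice stood below LO at 12 weeks or level with it, and above it at 32 weeks. These levels enter the interaction that ranked the genes, and so describe it only. Mgat2, the Golgi enzyme that starts the second branch of complex N-glycans, ranked first of all genes by p. Dnajb9 (ERdj4), a co-chaperone of the ER induced by IRE1 and XBP1, and Herpud1, an ER membrane protein of the degradation machinery, are established targets of the unfolded protein response. Hspa13 encodes an Hsp70-related protein of the microsomes.

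Mgat2 (ENSMUSG00000043998, chr12:69184157-69186770, GRCm38, plus strand) measured 76.9, 68.0, 69.0, 66.5 and 68.4 CPM in the LO mice at 12 weeks against 52.7, 47.7, 56.4, 50.4 and 58.4 in the PF mice. At 32 weeks it measured 58.4, 55.5, 47.6, 65.2 and 62.8 CPM in LO and 66.3, 61.0, 70.5, 62.6 and 65.4 in PF. At 12 weeks every PF mouse was below every LO mouse, and at 32 weeks the groups overlapped with PF the higher. The log2 difference was −0.39 ± 0.08 (SE) at 12 weeks and 0.17 ± 0.08 at 32 weeks, which gave an interaction of 0.56 ± 0.11 (edgeR adjusted p = 0.616, DESeq2 adjusted p = 0.00468). It was 0.52 without the mice numbered 1. The counts behind these values ran from 1553 to 3004 per library.

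Dnajb9 (ENSMUSG00000014905, chr12:44205559-44210326, minus strand) measured 96.8, 83.5, 102.0, 90.8 and 108.0 CPM in LO and 65.0, 66.5, 70.6, 53.3 and 76.4 in PF at 12 weeks, so that the groups did not overlap. At 32 weeks LO mice had 64.2, 68.0, 48.6, 73.3 and 94.5 CPM and PF mice 78.3, 83.9, 102.0, 84.1 and 90.9. The single LO mouse at 94.5 lay inside the PF range, and the other 4 lay below every PF mouse. The log2 difference went from −0.53 ± 0.13 to 0.33 ± 0.13, an interaction of 0.87 ± 0.19 (edgeR adjusted p = 0.732, DESeq2 adjusted p = 0.0415). Without the mice numbered 1 the interaction was likewise 0.87.

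Herpud1 (ENSMUSG00000031770, chr8:94386438-94395377, plus strand) averaged 647 ± 83.3 CPM (SD, n = 5) in LO and 500.7 ± 83.9 in PF at 12 weeks, and 377.1 ± 29.2 in LO and 484.6 ± 78.0 in PF at 32 weeks. The PF means at the 2 times differed by little, with a log2 difference of −0.05 ± 0.12, whereas LO was lower at 32 weeks by a log2 difference of −0.78 ± 0.12. At 32 weeks the lowest PF mouse (421 CPM) was above the highest LO mouse (414 CPM). The interaction was 0.73 ± 0.17. Hspa13 had 67.48 ± 5.07 CPM in LO and 54.02 ± 1.85 in PF at 12 weeks without overlap, then 51.39 ± 7.96 in LO and 61.88 ± 7.28 in PF, with an interaction of 0.59 ± 0.14.

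In other genes of the pathway the groups were level at 12 weeks and stood apart at 32 weeks. Bet1, a SNARE protein of vesicles moving from the ER to the Golgi, had a log2 PF minus LO difference of 0.0038 ± 0.07 at 12 weeks and 0.40 ± 0.07 at 32 weeks. The LO mice measured 29.2, 29.8, 28.2, 32.8 and 34.8 CPM at 32 weeks and the PF mice 41.1, 38.4, 44.8, 38.9 and 40.6, so that every PF mouse was above every LO mouse. The interaction of Bet1 was 0.39 ± 0.10. Ero1lb, an oxidase that supplies disulfide bonds in the ER, averaged 74.59 ± 11.9 CPM in LO and 71.58 ± 2.25 in PF at 12 weeks against 59.87 ± 5.29 and 82.58 ± 10 at 32 weeks (interaction 0.52 ± 0.14). Slc33a1, the acetyl-CoA transporter of the ER membrane, was also separated at 32 weeks without overlap, with 106.2 ± 10.5 CPM in LO and 130 ± 6.76 in PF (interaction 0.35 ± 0.10). Mcfd2, a cargo receptor subunit for coagulation factors, and Ssr3, a subunit of the translocon-associated complex, were likewise higher in every PF mouse than in any LO mouse at 32 weeks, with interactions of 0.32 ± 0.09 and 0.30 ± 0.09.

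**Figure D2:**
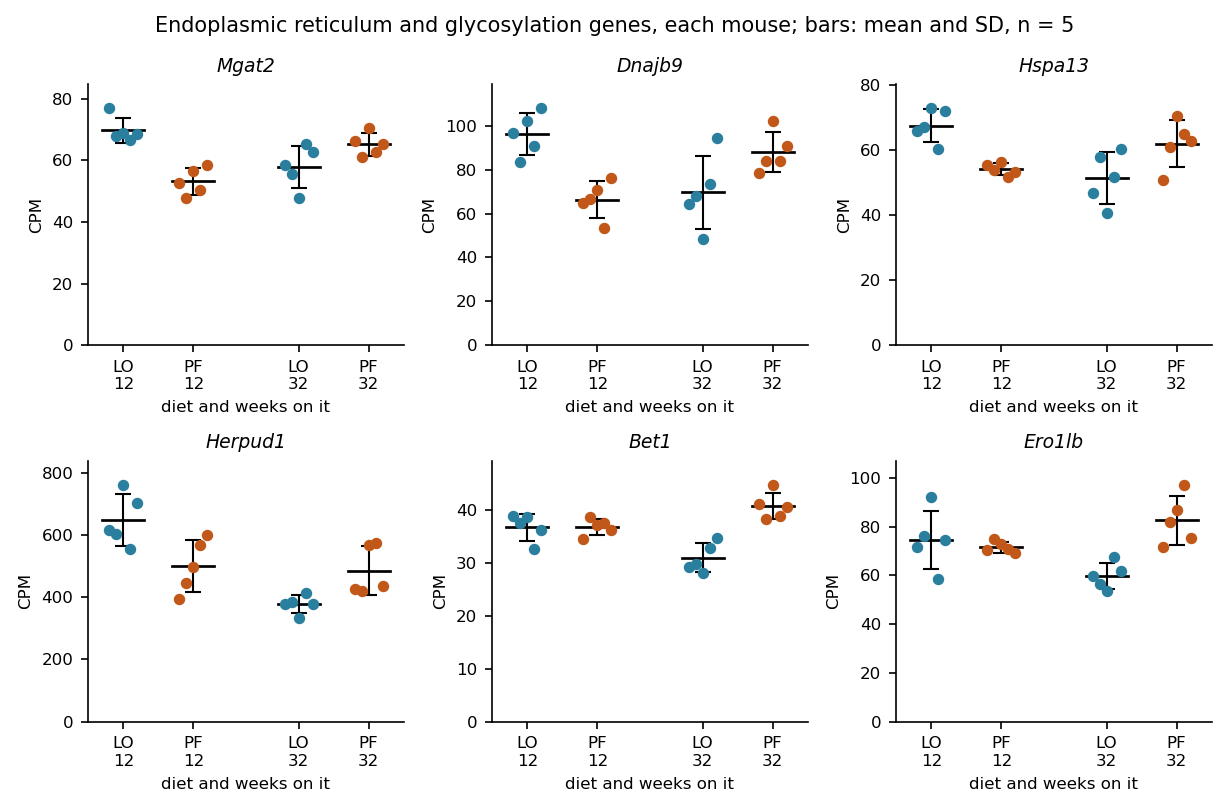
CPM of 6 genes of glycosylation, folding and ER to Golgi transport in each mouse, by diet and weeks of feeding, with the mean and SD of 5 mice. Mgat2, Dnajb9 and Hspa13 stand lower in every PF mouse than in every LO mouse at 12 weeks, and Herpud1, Bet1 and Ero1lb higher in every PF mouse at 32 weeks.

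The promoters of 3 of these genes are shown because ER stress factors are known to act through short motifs there, and to give the letters behind the motif counts. The sequences are the 250 bases before the RefSeq start in GRCm38.p6, with a motif match in capitals.
Herpud1, chr8:94386179-94386428, plus strand: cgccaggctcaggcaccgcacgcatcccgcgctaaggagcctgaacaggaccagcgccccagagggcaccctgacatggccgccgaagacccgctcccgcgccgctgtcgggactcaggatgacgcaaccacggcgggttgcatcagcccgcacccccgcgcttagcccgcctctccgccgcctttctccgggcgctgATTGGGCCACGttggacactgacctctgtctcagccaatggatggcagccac
Ero1lb (Ero1b in RefSeq), chr13:12565633-12565882, plus strand: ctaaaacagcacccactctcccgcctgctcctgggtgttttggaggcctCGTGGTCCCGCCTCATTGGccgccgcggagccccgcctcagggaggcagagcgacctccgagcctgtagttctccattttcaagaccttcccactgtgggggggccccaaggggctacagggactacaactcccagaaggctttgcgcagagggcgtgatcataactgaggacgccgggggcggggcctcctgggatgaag
Dnajb9, chr12:44210069-44210318, minus strand: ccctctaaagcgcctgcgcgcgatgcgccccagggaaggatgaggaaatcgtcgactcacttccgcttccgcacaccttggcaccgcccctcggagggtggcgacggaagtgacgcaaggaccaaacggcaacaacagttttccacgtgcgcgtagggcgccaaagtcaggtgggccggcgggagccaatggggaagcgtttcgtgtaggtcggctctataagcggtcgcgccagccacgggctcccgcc
The capitals in Herpud1 mark the ER stress response element II (ERSE-II, ATTGG and CCACG with 1 base between them) beginning 52 bases before the start. The capitals in Ero1lb mark the ER stress response element (ERSE, CCAAT and CCACG with 9 bases between them), read on the opposite strand, and begin 201 bases before the start. Dnajb9 held neither of these nor the unfolded protein response element (UPRE, TGACGTGG) in this window. The RefSeq start of Dnajb9 lies inside the wider span given above, which is GENCODE's, so that this window overlaps the annotated gene. Searched on both strands, where the motifs can overlap, ERSE stood in 0.113% of all 32851 promoters of this length, ERSE-II in 0.0304% and UPRE in 0.563%. Of the 15 positive genes named by rule, 13 had a promoter entry, Hspa13 and Bag4 having none, and only Herpud1 and Ero1lb among the 13 held a match. Over the tested genes of the 4 ER and Golgi lists described below, ERSE stood in 10 of the 102 with an entry (9.8%), and in 2 of the 21 among those at an unadjusted interaction p under 0.05 (9.52%). UPRE stood in 8 of the 102 (7.84%) and 2 of the 21 (9.52%). The 13, 102 and 21 count genes, with a match in any promoter of the gene, whereas the 32851 are single promoters. The lists include ATF6 and IRE1-XBP1 targets by their making, so nothing is read from shares above that of all promoters.

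The 4 lists of ER chaperones and ATF6 targets, IRE1-XBP1 targets and ER-associated degradation, translocation and N-glycan transfer, and ER to Golgi transport held 125 different genes that were tested. At an unadjusted p under 0.05 stood 28 of them (22.4%, beside 2.74% of all genes in this direction), all with a positive interaction, and none with a negative one. Of the 125, 100 had an interaction above 0, with a median of 0.146. In the counts of list members that follow, positive and negative members are those at an unadjusted p under 0.05, and the sign alone is given as above or below 0. Of all genes tested 2.74% were positive and 3.63% negative in this sense, and 8309 of 16427 lay above 0. Among the 28, the difference appeared in 16, faded in 3, reversed in 3 and crossed in 6, and in all 28 the LO level was lower at 32 weeks than at 12 weeks. The LO change is part of the interaction that picked the 28, so nothing is read from that count. Over the 125 genes the LO level was lower at 32 weeks in 114 (91.2%, beside 52.2% of all genes tested).

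By role, the degradation arm had 7 positive members of 24 tested, with a median interaction of 0.206. These included Derl2, a channel component for misfolded protein (0.29 ± 0.09), the ubiquitin ligase Syvn1 (0.49 ± 0.18) and Selenos, a partner of the degradation complex (0.30 ± 0.11, and 0.18 without the mice numbered 1), named after their values were seen. Translocation and N-glycan transfer had 7 of 33 (median 0.199), among them Ostc, a subunit of the oligosaccharyltransferase (0.35 ± 0.13), and, named after its value was seen, Spcs2, a subunit of the signal peptidase (0.29 ± 0.11, and 0.18 without those mice). ER to Golgi transport had 10 of 44 (median 0.130), including Sar1b, a GTPase of the coat that buds vesicles from the ER (0.36 ± 0.15, and 0.23 without those mice). Preb, which activates that coat but stood in none of the lists, had a reversed difference, −0.23 ± 0.09 at 12 weeks and 0.20 ± 0.09 at 32 weeks. Sar1b and Preb were also named after their values were seen.

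The chaperone list was less uniform. It had 6 positive members of 26, but only 14 of 26 lay above 0 (median 0.137), and 4 of the 6 were Dnajb9, Herpud1, Ero1lb and Ero1l. Ero1l, the more widely expressed oxidase of the same family as Ero1lb, had 49.35 ± 7.35 CPM in LO and 37.98 ± 9.11 in PF at 12 weeks, then 35.59 ± 5.27 and 46.15 ± 8.69 (interaction 0.75 ± 0.22). Hspa5 (BiP), the main chaperone of the ER, had an interaction of 0.18 ± 0.19, with PF above LO by 0.20 ± 0.13 at 12 weeks and by 0.38 ± 0.13 at 32 weeks, and its interaction was 0.085 without the mice numbered 1. Ero1l and Hspa5 were named after their values were seen. The median of this list was 0.0269 without PF mouse 1 at 32 weeks and −0.034 without the mice numbered 1, and so its direction rested on them. The other lists kept medians of 0.127 to 0.172 without those mice, with 6 to 10 positive members each.

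The list of the third arm, PERK and ATF4, had 2 positive and 2 negative members of 32 and a median of −0.0203. Without the mice numbered 1 the median was −0.0648. Eif2ak3, which encodes PERK itself, had an interaction of 0.42 ± 0.14 and Atf4 of 0.32 ± 0.13, whereas Psat1, an ATF4 target in serine synthesis, had −0.57 ± 0.21. Atf4 was named after its value was seen.

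The remaining genes of the positive 15 were named by p alone. Tspyl2, a nucleosome assembly protein that restrains growth, was lower in every PF mouse than in any LO mouse at 12 weeks (59.21 ± 6.94 against 76.93 ± 5.45 CPM), and the difference faded to 0.12 ± 0.09 at 32 weeks (interaction 0.50 ± 0.12). Clk4, a kinase of splicing factors, reversed from −0.21 ± 0.07 to 0.17 ± 0.07. Bag4, a co-chaperone that blocks death receptor signalling, faded from −0.25 ± 0.07 to 0.11 ± 0.07, and Cacfd1 from −0.23 ± 0.05 to 0.05 ± 0.05. Slc30a5, a zinc transporter of the early secretory pathway, went from −0.17 ± 0.07 to 0.21 ± 0.07, and Gpr155, a cholesterol sensor of the lysosome, from −0.50 ± 0.15 to 0.29 ± 0.15. Nfxl1 and Cgrrf1 completed the 15 genes, with interactions of 0.58 ± 0.15 and 0.66 ± 0.18. Of the 15, 8 had every PF mouse below every LO mouse at 12 weeks (1.34% of all genes did) and 4 every PF mouse above at 32 weeks (0.432% of all genes). These counts use the diet differences whose change ranked the genes, and nothing is read from them.

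Of the 15 negative genes named by rule, 4 (Cdh3, Pkp1, Tns4 and Krt15) belong to basal epithelial cells, their junctions or adhesions. Their levels in LO mice were higher at 32 weeks than at 12 weeks, by log2 differences of 0.60 to 1.24, while those in PF mice differed between the times by −0.25 to 0.26. A diet difference appeared at 32 weeks with PF the lower. These changes, too, enter the interaction that ranked the genes. Cdh3 (P-cadherin), an adhesion protein of basal cells, Pkp1, a plate protein of desmosomes, and Tns4, a focal adhesion protein, were lower in every PF mouse than in any LO mouse at 32 weeks. In bulk tissue, fewer cells of a type and less RNA per cell cannot be told apart.

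Cdh3 (ENSMUSG00000061048, chr8:106510891-106557297) measured 8.08, 6.5, 5.57, 7.18 and 6.11 CPM in LO and 9.82, 7.44, 7.62, 7.62 and 7.77 in PF at 12 weeks. At 32 weeks LO mice had 12.5, 10.6, 11.3, 7.61 and 8.6 CPM and PF mice 6.12, 7.0, 7.07, 6.68 and 7.10. The groups overlapped at 12 weeks with PF the higher and were separate at 32 weeks with PF the lower. The log2 difference was 0.27 ± 0.13 and then −0.58 ± 0.13 (interaction −0.84 ± 0.19, edgeR adjusted p = 0.732, DESeq2 adjusted p = 0.0766). Without the mice numbered 1 it was −0.72.

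Pkp1 averaged 6.67 ± 1.14 CPM in LO and 7.51 ± 0.84 in PF at 12 weeks, and 11.4 ± 2.10 in LO and 6.97 ± 1.38 in PF at 32 weeks (interaction −0.88 ± 0.22). Tns4 went from 7.03 ± 0.94 and 7.23 ± 1.04 CPM to 11.1 ± 2.11 and 6.37 ± 1.15 in the same order (interaction −0.84 ± 0.22). Krt15, a keratin of basal and progenitor cells, had 51.8, 38.1, 23.3, 43.3 and 27.1 CPM in LO and 42.8, 59.6, 35.2, 40.5 and 55.2 in PF at 12 weeks. At 32 weeks Krt15 stood at 103.0, 81.8, 92.7, 64.0 and 91.5 CPM in LO and 65.5, 58.1, 53.0, 43.8 and 59.7 in PF, where the highest PF mouse overlapped only the lowest LO mouse (interaction −0.97 ± 0.27).

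Of the 12 basal epithelial markers, all tested, 5 stood at an unadjusted p under 0.05 with a negative interaction (3.63% of all genes in this direction) and none with a positive one, and the list median was −0.659. The 5 were Krt15, Krt5 (−0.89 ± 0.28), Col17a1 (−1.06 ± 0.34), the basal cell transcription factor Trp63 (−0.59 ± 0.19) and the laminin chain Lama3 (−0.73 ± 0.24), and in each the difference appeared at 32 weeks. Trp63 and Lama3 were named after their values were seen. Krt5 was highest in LO mouse 1 at 32 weeks, with 100 CPM beside 46.7 to 62.7 in the other 4. Without that mouse the list median was −0.437 with 5 negative members, and without all 4 mice numbered 1 it was −0.527 with 7. The 16 luminal epithelial markers had no member at an unadjusted p under 0.05 and a median of −0.0578, from 0.039 at 12 weeks to 0.017 at 32 weeks.

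**Figure D3:**
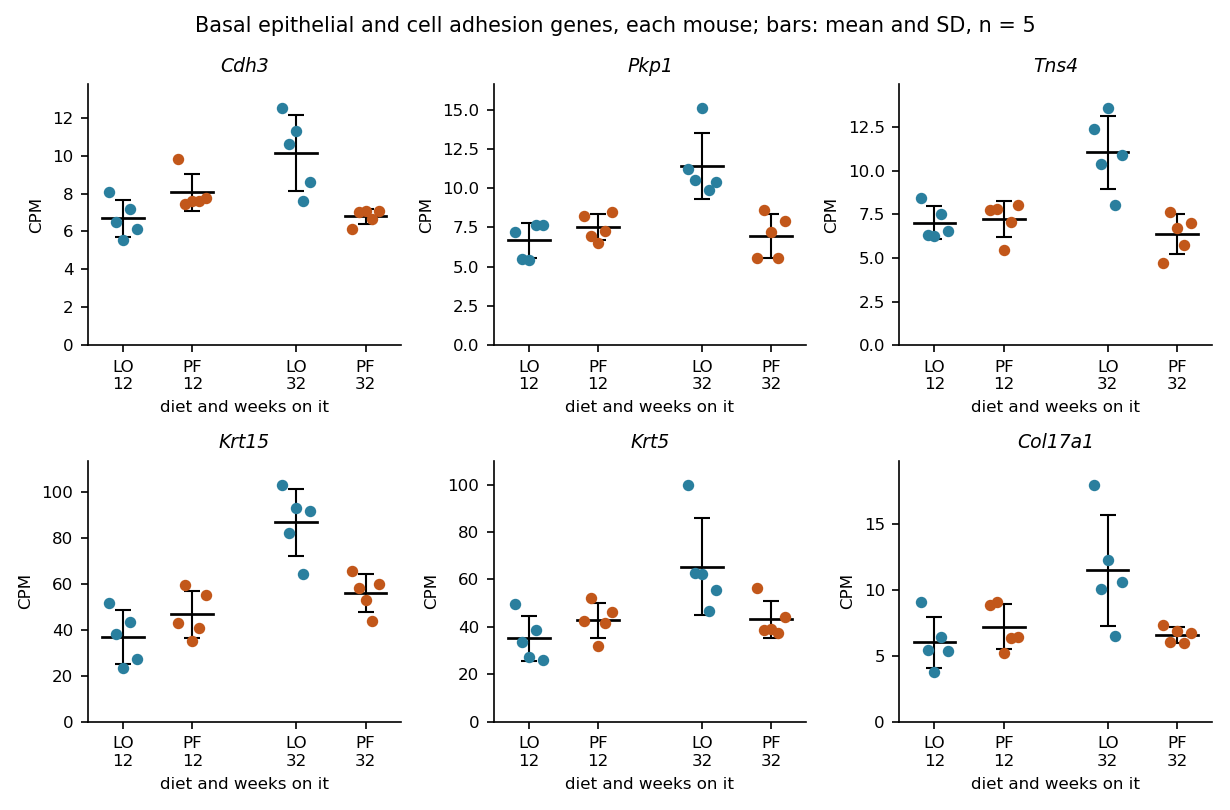
CPM of 6 genes of basal epithelial cells and cell adhesion in each mouse, by diet and weeks of feeding, with the mean and SD of 5 mice. In every panel the LO mice at 32 weeks have the highest mean of the 4 groups, and in Cdh3, Pkp1 and Tns4 they lie above all PF mice of the same time.

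The remaining non-immune genes of the negative 15 were named by p alone. Spon1, a secreted matrix protein, went from 0.31 ± 0.15 to −0.47 ± 0.15, and Slitrk6, a transmembrane protein of neurons and epithelia, faded from 0.54 ± 0.15 to −0.29 ± 0.15. Aldh1a2, which makes retinoic acid, reversed from 0.57 ± 0.22 to −0.49 ± 0.22, as did Tubb2a, a tubulin whose reads may be shared with its close copy Tubb2b, from 0.34 ± 0.12 to −0.27 ± 0.12. For Orai2, a calcium channel subunit, Tspan9, a tetraspanin, and Wdr19, a protein of cilia, a difference appeared at 32 weeks, of −0.35 ± 0.12, −0.33 ± 0.10 and −0.34 ± 0.10. Of the negative 15, 6 had every PF mouse below every LO mouse at 32 weeks (0.7% of all genes), by the contrast that ranked them.

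Most immune lists had negative median interactions, with a wide spread between mice. Mast cell markers did not: of 8 tested, 4 lay above and 4 below 0 (median 0.0026), with 0 at an unadjusted p under 0.05. At 12 weeks immune genes were higher in some PF mice than in LO mice. At 32 weeks 4 of the 5 LO mice lay within or above the PF range on the B and plasma cell, macrophage and complement lists. LO mouse 4 at 32 weeks lay below every PF mouse on these 3 lists. At 12 weeks the PF mice split, with mice 2 and 3 high in B and plasma cell genes and mice 4 and 5 as low as LO.

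Ighm, the constant region of IgM, had 223, 107, 351, 428 and 218 CPM in LO at 12 weeks and 376, 2230, 4280, 118 and 155 in PF. At 32 weeks Ighm stood at 7000, 3900, 7400, 542 and 4740 CPM in LO and 1460, 1690, 1310, 2070 and 4130 in PF. The groups overlapped at both times. The log2 difference faded from 2.43 ± 0.82 to −1.15 ± 0.79 (interaction −3.58 ± 1.14). Irf4, a transcription factor of plasma cells, had an interaction of −2.48 ± 0.79, Pou2af1, a B cell coactivator, of −3.46 ± 1.16, Jchain, which joins IgM and IgA into polymers, of −2.92 ± 1.08, and Igkc, the kappa constant region, of −3.0 ± 1.1, all fading. Pou2af1, Jchain and Igkc were named after their values were seen. With limma's sample weights the interactions were smaller by over 1.5 times, at −1.94 for Ighm, −1.49 for Irf4, −1.40 for Pou2af1 and Jchain, and −1.18 for Igkc.

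The B and plasma cell list had 8 negative members of 19 and a median of −1.26, from 1.26 at 12 weeks to −0.0273 at 32 weeks. The median was −2.24 without LO mouse 4 at 12 weeks and −0.659 without PF mouse 3 at 12 weeks. With limma's sample weights it was −0.534, with 1 negative member. Of 148 immunoglobulin variable segments tested 132 lay below 0, with a median of −2.70. At an unadjusted p under 0.05 stood 64 negative and 1 positive (3.63% and 2.74% of all genes). The 64 became 38 without PF mouse 3 at 12 weeks, and 4 with sample weights. Iglv3, a lambda variable segment, was the one of them called by DESeq2, and was named for that reason after its values were seen. It had 0.154, 0.0315, 0.144, 0.156 and 0.213 CPM in LO and 3.32, 2.63, 11.1, 0.414 and 0.751 in PF at 12 weeks, without overlap, and then 5.89, 25.0, 36.5, 0.614 and 7.33 in LO and 0.4, 3.88, 4.1, 2.3 and 4.31 in PF. Its LO values at 12 weeks came from 1 to 7 counts per library. Reads of variable segments can fall on near-identical copies, so that single segments are uncertain.

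Serpina3f, a serine protease inhibitor of the acute phase cluster, had the smallest p of the 15 negative genes named by rule. It measured 0.179, 0.0315, 0.216, 0.468 and 0.122 CPM in LO and 0.44, 2.1, 5.7, 0.718 and 0.26 in PF at 12 weeks, and 3.12, 2.97, 3.0, 0.399 and 10.7 in LO and 0.5, 1.36, 0.752, 0.511 and 0.997 in PF at 32 weeks. The groups overlapped at both times, and the interaction was −5.40 ± 1.17 (edgeR adjusted p = 0.732, DESeq2 adjusted p = 0.0221). The Serpina3 genes are near copies of each other, and its reads may be shared. Chil3, a chitinase-like protein of macrophages, had the most negative value of the 15 (−8.90 ± 2.5), but PF mouse 1 at 12 weeks alone stood at 57.7 CPM while the other 19 mice stood between 0 and 2.23. Without that mouse the interaction was −2.85, and with sample weights it was −0.41.

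Of the 22 complement genes 19 lay below 0 (median −0.709), and 8 stood at an unadjusted p under 0.05, all of them negative (3.63% of all genes were). C4b, of the classical pathway, had 40.2, 18.8, 31.5, 27.9 and 32.8 CPM in LO and 45.8, 64.9, 55.9, 38.6 and 19.5 in PF at 12 weeks, and 111, 71.4, 182, 19.6 and 90.2 in LO and 46.8, 69.0, 31.6, 35.8 and 55.9 in PF at 32 weeks (interaction −1.56 ± 0.57). The central component C3 had −1.90 ± 0.73, the terminal component C7 −1.29 ± 0.49 and Serping1, the inhibitor of C1, −0.67 ± 0.23. C3 and C7 were named after their values were seen. With 1 mouse left out the count ran from 4 to 14, and was 14 without LO mouse 4 at 32 weeks.

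Macrophage markers had 4 negative members of 20 and a median of −0.891, led by Lyve1, a hyaluronan receptor of resident macrophages and lymph vessels (−1.41 ± 0.42), and Mrc1, the mannose receptor (−0.90 ± 0.38). With 1 mouse left out the count ran from 1, for 6 different mice, to 13, without LO mouse 4 at 32 weeks. Toll-like receptors had 4 negative of 12, with all 12 below 0 (median −0.694), led by Tlr13, a sensor of bacterial ribosomal RNA (−1.26 ± 0.44). The count was 7 without LO mouse 4 at 32 weeks, and 1 without LO mouse 2 or PF mouse 2 at 12 weeks. MHC class II genes had 2 of 12 (between 0 and 7 with 1 mouse left out), with all 12 below 0 (median −0.769), and Cd74, the invariant chain, faded from 0.78 ± 0.29 to −0.16 ± 0.29. T cell markers had none of 22 at an unadjusted p under 0.05. Their median was −0.520, and −0.335 without the mice numbered 1. Leaving out LO mouse 4 at 12 weeks took the T cell median to −1.0 with 6 negative members, and leaving out PF mouse 2 at 12 weeks took it to −0.247. Beside these lists, 3.63% of all genes tested were negative and 8118 of 16427 lay below 0.

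Chemokine ligands had 5 negative of 30 and chemokine receptors 4 of 18 (3.63% of all genes were negative), with none positive in either. Ccl8, a ligand for monocytes and T cells, faded from 2.19 ± 0.71 to −0.35 ± 0.67, and its interaction of −2.54 ± 0.97 was −1.55 without PF mouse 3 at 12 weeks. Cxcl13, the ligand that draws B cells into follicles, appeared at 32 weeks with −1.1 ± 0.44 (interaction −1.53 ± 0.62, and −0.97 with sample weights). Ackr4, a scavenger of chemokines, had less spread, with 3.76, 3.63, 3.52, 3.54 and 4.65 CPM in LO and 6.09, 6.04, 4.16, 5.0 and 6.1 in PF at 12 weeks, and a difference that faded from 0.52 ± 0.14 to −0.20 ± 0.14 (interaction −0.72 ± 0.20). Ifitm2, an antiviral membrane protein with close copies, reversed from 0.18 ± 0.08 to −0.23 ± 0.08. Of 32 interferon-stimulated genes 31 lay below 0, with a median of −0.604, but only 1 stood at an unadjusted p under 0.05. Mmp3, a metalloproteinase of inflamed stroma, had an interaction of −3.42 ± 1.04 at a mean of 0.694 CPM, and of −2.16 with sample weights.

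**Figure D4:**
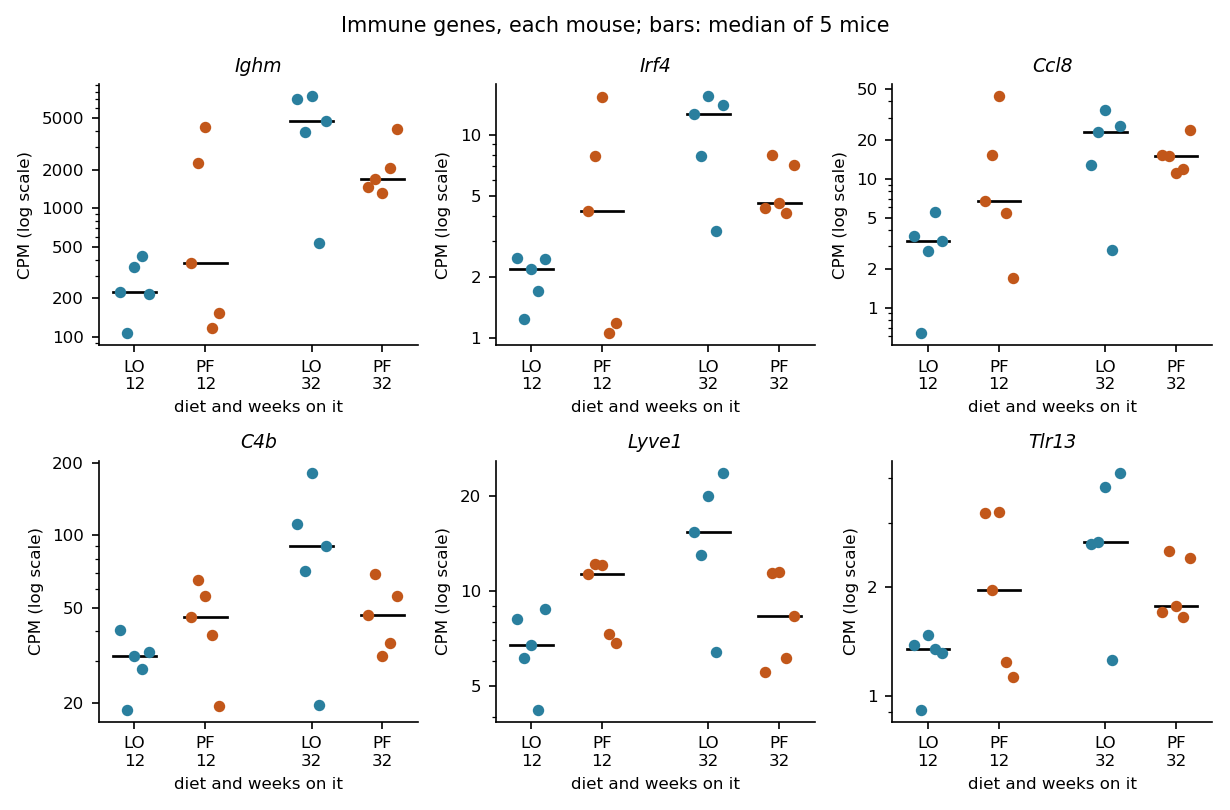
CPM on a log scale of 6 immune genes in each mouse, by diet and weeks of feeding, with bars at the median of 5 mice. The PF mice at 12 weeks are spread widely and their median is above that of LO in every panel, and LO mouse 4 at 32 weeks lies below the other LO mice of its time in all 6 panels.

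Lists of other cell types also had medians away from 0. That of 13 skeletal muscle markers was −1.16, with 0 at an unadjusted p under 0.05. It was 0.43 without the mice numbered 1 and ran from −2.81 to 0.549 with 1 mouse left out. Collagens lay below 0 in 22 of 25 (median −0.534, 3 negative members) and endothelial markers in 11 of 12 (−0.289, none at the threshold). Fibroblast markers lay below 0 in 13 of 16 (−0.361, 1 negative, and −0.215 without the mice numbered 1). Collagens, endothelial and fibroblast markers had the direction of the basal list and most immune lists. Over all genes tested 8118 of 16427 lay below 0. Of 21 ventral prostate secretory genes listed, 12 were tested. Of these, 10 lay above 0 (median 0.461, 1 positive), the direction of the ER and Golgi lists. Without the mice numbered 1 the secretory median was 0.306. All 5 red blood cell genes tested lay above 0 (median 1.74, from −0.328 at 12 weeks to 1.43 at 32 weeks), 4 of them at an unadjusted p under 0.05. Hbb-bs, a beta globin with a close copy, stood at 70.1, 70.5, 123.0, 292.0 and 19.6 CPM in PF at 32 weeks beside 70.8, 23.9, 28.2, 21.6 and 40.2 in LO (interaction 2.14 ± 0.74), and Hba-a1, an alpha globin named after its value was seen, had 1.74 ± 0.79. The summed level of the 5 genes ran from 42.4 to 500.0 CPM in PF and from 49.1 to 144.0 in LO at 32 weeks. Without PF mouse 4 at 32 weeks, 1 of the 5 stood at that threshold. Adipocyte genes lay above 0 in 17 of 17, with 1 at an unadjusted p under 0.05. Their median was 1.31, and 0.772 with sample weights. Fabp4, a fatty acid carrier of adipocytes, ran from 39.0 to 389.0 CPM in PF and from 32.1 to 186.0 in LO at 32 weeks (interaction 1.63 ± 0.96). At 12 weeks its counts ran from 1884 to 6541 in PF and from 620 to 8811 in LO. The part that blood, fat or stroma in the samples plays in the other results was not tested.

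**Figure D5:**
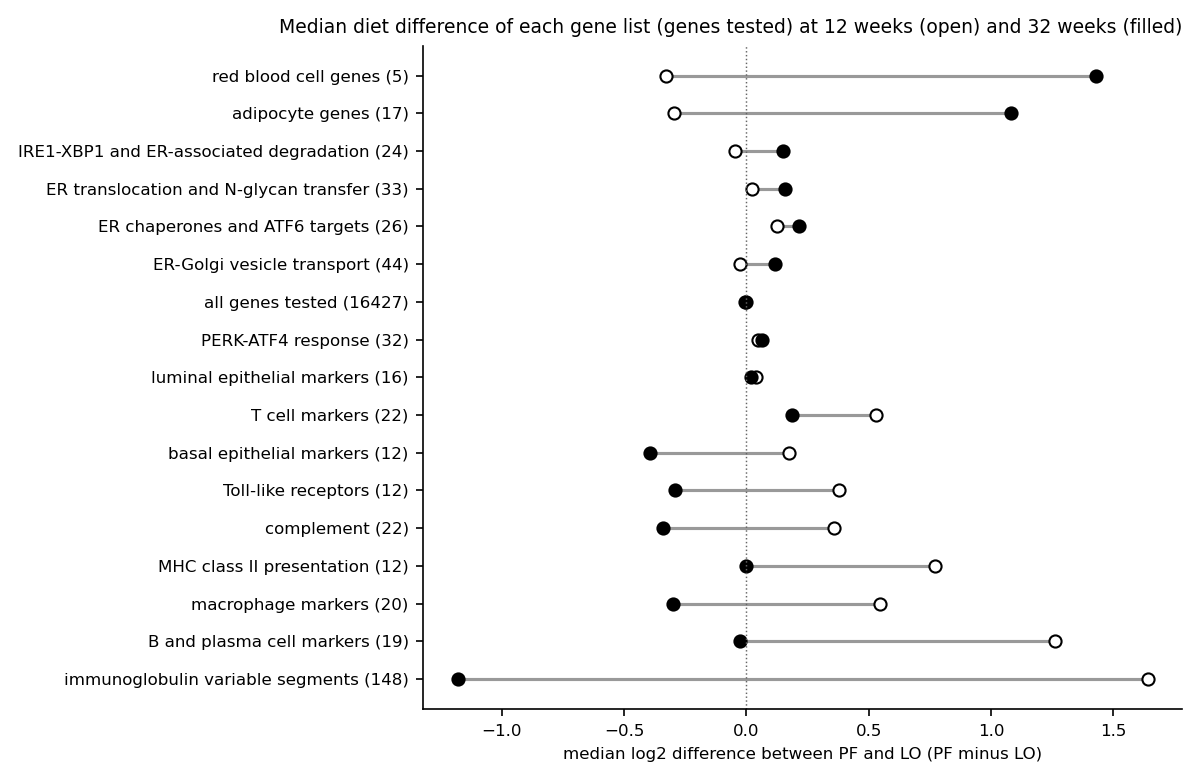
Median log2 PF minus LO of each gene list at 12 weeks (open circles) and at 32 weeks (filled circles), with the number of genes tested in brackets. The 4 ER and Golgi lists, red blood cell and adipocyte genes lie further right at 32 weeks than at 12 weeks. The basal epithelial list and the immune lists drawn lie further left, and the luminal list and all 16427 genes nearly in place.

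Among the lists of lipid metabolism, PPAR targets and fatty acid oxidation had 26 of 33 above 0, a median of 0.190 and 2 positive members. No member of the fatty acid synthesis (21 tested) or cholesterol synthesis (25) lists stood at an unadjusted p under 0.05, with medians of 0.0671 and −0.155, and polyunsaturated fatty acid synthesis had 1 positive of 13. None of 76 cytosolic ribosomal protein genes and none of 65 nuclear respiratory chain genes did so, with medians of 0.00064 and 0.0664. Without the mice numbered 1 these medians were −0.165 and −0.131. Circadian clock genes had 2 positive and 3 negative of 26 (2.74% and 3.63% of all genes). Arntl (BMAL1), the positive limb of the clock, had 2.12, 4.23, 2.23, 3.04 and 3.43 CPM in LO and 4.01, 7.11, 6.57, 4.72 and 5.63 in PF at 12 weeks, a difference of 0.90 ± 0.22 that faded to −0.06 ± 0.21 (interaction −0.96 ± 0.30). Its partner-like factor Npas2, named after its value was seen, had −0.97 ± 0.43. Androgen response genes had 4 positive and 1 negative of 28 and a median of 0.038. Fkbp5, an androgen-induced co-chaperone of steroid receptors, went from −0.34 ± 0.16 to 0.25 ± 0.16, and Uap1, which makes a sugar donor for glycosylation, from −0.10 ± 0.09 to 0.24 ± 0.09. The markers of seminal vesicle, 8 genes in the files, were all too low to be tested.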

How the data were processed

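RNA of the ventral prostate was sequenced by the authors from TruSeq Stranded mRNA libraries. The deposited files hold raw counts of reads per Ensembl gene for each mouse, made by the authors with tools their notes name as TopHat2, HTSeq and DESeq2 on GRCm38.p6; versions, annotation release and the strand setting of the counting are not given in the sources used here. The lines for reads assigned to no gene, 23.68% to 31.99% of all counted, were left out. Symbols of 37607 of 39179 identifiers came from GENCODE. Genes were filtered with filterByExpr, scaled by TMM and fitted in edgeR 4.0.16 (R 4.3.3) with 1 mean per group over 20 mice; the interaction was tested by quasi-likelihood with Benjamini-Hochberg adjustment at 0.05. Alternatives used DESeq2 1.42.0 and limma 3.58.1. The fit was tested on simulated data. Named genes were the 15 of smallest p in each direction (protein-coding, with a symbol that is no clone name, mean at least 1 CPM) and the 2 of smallest p in each of 50 gene lists; others are marked. The genes and lists were chosen with earlier results of these data known. Dixon's test used log2 CPM or list means. Promoters came from RefSeq. Counting error was not separated from the spread between mice. It weighs most in genes with few counts: the lowest count in a library was 1 for Serpina3f, Mmp3 and Iglv3 and 0 for Chil3.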

Additional observations from a re-analysis of the deposited data

Results flagged for a closer look

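In 356 groups of 5 mice (a reported gene or gene list in 1 group), 19 (5.34%) held a mouse far from the others by Dixon's test, which flags about 5% by chance, and 8 of the 19 were mice numbered 1. For mouse 1, these were Mgat2 in LO at 12 weeks (76.9 CPM), Cdh3 (9.82 CPM), Uap1 (42.3 CPM) and the PERK-ATF4 list (mean log2 level relative to all mice -0.0673) in PF at 12 weeks, Tspan9 in LO at 12 weeks (31.8 CPM), Hba-a1 in LO at 32 weeks (28.1 CPM), and Iglv3 (0.4 CPM) and the luminal epithelial list (0.546) in PF at 32 weeks. LO mouse 4 at 32 weeks was lowest for Ighm (542 CPM), Jchain (73.9 CPM), Trp63 (16.1 CPM) and Spon1 (14.2 CPM). LO mouse 4 at 12 weeks was lowest for Slc33a1 (111 CPM), and LO mouse 2 at 12 weeks for Iglv3 (0.0315 CPM) and Tlr13 (0.915 CPM). The others were the highest of their groups: LO mouse 5 at 12 weeks for Ackr4 (4.65 CPM), LO mouse 2 at 32 weeks for Fkbp5 (657 CPM), and PF mouse 5 at 32 weeks for Spon1 (21.1 CPM) and Jchain (661 CPM).

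The diet difference differed between the 2 times at an adjusted p under 0.05 in DESeq2's Wald test for Iglv3 (adjusted p = 0.000982), Mgat2 (0.00468), Serpina3f (0.0221) and Dnajb9 (0.0415). In edgeR's quasi-likelihood test their adjusted p lay between 0.616 and 0.732.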

How the results depend on the processing

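No gene passed the adjusted threshold in edgeR, nor at an adjusted p under 0.1, and of the other alternatives only DESeq2's Wald test made calls, with 4 genes. The genes at an unadjusted p under 0.05 numbered 846 to 1344 over the other alternatives and 754 to 1559 when each mouse was left out in turn. Those with a positive interaction numbered 704 with limma's sample weights, 711 without the mice numbered 1, and 308 to 892 leaving out 1 mouse; negative ones 443 to 957 leaving out 1 mouse. With single mice left out, 221 to 646 differences appeared, 222 to 601 faded and 17 to 90 reversed. Without the mice numbered 1, 652 faded and 50 reversed, and 65 reversed with sample weights. The cause was not tested. Whether the replicate numbers pair the mice is not stated. Same-numbered mice of the 2 diets correlated between -0.172 and 0.46, and not every mouse correlated best with its own number. Their mean correlation was 0.0832 at 12 weeks and 0.204 at 32 weeks, beside -0.0208 and -0.0478 for mice of different numbers. The mice numbered 1, however, correlated in each of the 4 pairs of groups (0.272 to 0.46), and the labels do not say whether the number marks a batch. A replicate block within each time point gave 0 adjusted calls, 1315 genes at an unadjusted p under 0.05 and 61 reversals, and a replicate block over both time points 0, 1316 and 56. The 50 lists kept medians within the spread between mice in 344 of 350 comparisons and in 991 of 1000 leaving out 1 mouse. Among the lists led with, the ER chaperone median was -0.034 without the mice numbered 1 and 0.0269 to 0.18 leaving out 1 mouse, that of basal markers -0.756 to -0.437, of B and plasma cell markers -2.24 to -0.659, and of immunoglobulin segments -1.34 with sample weights. The reported genes kept their direction and stayed short of the threshold under every alternative, other than the 4 DESeq2 calls. No alternative scaling moved the median of all genes by over 0.1. With 5 mice a group, the median SE of 0.22 limits what an interaction test across all genes can call.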
